A study of Homo sapiens with 18 samples.

Results

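The narrow distal H3K27me3 loci of MOLM-13 cells are 8714 of 13899 loci (62.7%) that carried trimethylation of lysine 27 on histone H3. Overlapping intervals of the deposited H3K27me3 list were merged into loci, and a locus was kept if it spanned under 15 kb, lay more than 2 kb from every protein-coding transcription start site (TSS) of GENCODE release 44 (hg38), and overlapped no listed H3K4me1 interval. Of the loci under 15 kb, 9149 were distal, and 435 of these were left out because they overlapped H3K4me1. The widest member spanned 14985 bp, the narrowest locus left out for its width 15004 bp, and the member closest to a TSS lay 2001 bp from it. The loci left out fell into 3963 narrow loci near a TSS (called promoter loci here), 787 wide loci and the 435 distal loci with H3K4me1. No measured level entered this rule, apart from the calling of the intervals themselves.

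MOLM-13 cells are an established line of human acute myeloid leukemia that carries a KMT2A rearrangement. Cells received 100 nM PR-957 (ONX-0914), an inhibitor of the immunoproteasome subunit PSMB8, or DMSO as diluent, for 72 h per the labels, while a figure legend of the study gives a shorter time. Cut&Tag, where Tn5 transposase is tethered to an antibody and cuts the DNA near the bound histone, gave 2 libraries per treatment for each of 4 histone modifications. Nothing in the labels places the 2 libraries in separate cultures, so the p-values measure the spread between libraries, which may be technical, and a single cell line stands for the disease. The H3K27me3 libraries held total counts of 10032503 to 12047958 summed over the listed intervals, which overlap and count the same reads more than once. H3K4me3 intervals lay within 2 kb of a TSS of SPI1, CEBPA, CD33, CSF1R and FLT3 but not of the other myeloid genes PTPRC and MPO, and PAX5 and EPCAM, of other lineages, also had one.

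H3K27me3 is written by Polycomb repressive complex 2 through EZH2 or EZH1 and removed by the demethylases KDM6A and KDM6B. It is associated with silent genes, above all developmental regulators, where it often spreads over broad domains that start at CpG islands, stretches of DNA rich in the dinucleotide CG. Away from promoters the mark can sit on CpG islands inside or between genes, on starts of noncoding transcripts, at the fringe of a broad domain, or as thin signal over closed chromatin. H3K4me3 marks promoters, H3K4me1 enhancers and promoter flanks, and H3K27ac active promoters and enhancers, and acetylation and trimethylation cannot be carried by the same lysine at once.

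The DNA beneath the loci is shown by the 200 bases at the middle of the widest interval (hg38, plus strand), with each CG dinucleotide in capitals. The first 3 are from loci among the 4 with the smallest p-values for PR-957 against DMSO, and the last 3 from the loci with the densest H3K27me3.
TMEM174 region, chr5:73234492-73234691: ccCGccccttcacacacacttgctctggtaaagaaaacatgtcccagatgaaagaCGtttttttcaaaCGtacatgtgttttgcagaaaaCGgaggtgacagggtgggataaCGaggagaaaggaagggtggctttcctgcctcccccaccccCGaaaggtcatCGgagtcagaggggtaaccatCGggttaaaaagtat
EGLN1 upstream region, chr1:231465083-231465282: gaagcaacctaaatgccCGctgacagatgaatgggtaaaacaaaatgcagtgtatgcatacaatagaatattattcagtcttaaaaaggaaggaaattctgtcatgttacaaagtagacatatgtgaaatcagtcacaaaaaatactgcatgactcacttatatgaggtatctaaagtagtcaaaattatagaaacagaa
CHRNA1 region, chr2:174730881-174731080: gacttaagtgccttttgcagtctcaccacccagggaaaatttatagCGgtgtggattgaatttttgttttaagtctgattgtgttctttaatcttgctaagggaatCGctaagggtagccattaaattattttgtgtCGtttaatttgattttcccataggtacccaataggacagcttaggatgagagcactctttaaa
LINC01798, near MEIS1, chr2:66582306-66582505: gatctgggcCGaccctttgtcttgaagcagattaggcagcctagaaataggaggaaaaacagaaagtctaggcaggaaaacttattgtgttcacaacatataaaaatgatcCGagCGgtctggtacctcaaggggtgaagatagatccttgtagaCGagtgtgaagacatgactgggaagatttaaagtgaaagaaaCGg
FOXO1B, chr5:181099698-181099897: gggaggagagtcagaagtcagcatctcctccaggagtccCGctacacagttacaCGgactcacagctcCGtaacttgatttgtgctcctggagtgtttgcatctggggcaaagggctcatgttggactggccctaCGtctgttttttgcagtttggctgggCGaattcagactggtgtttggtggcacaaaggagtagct
NKX2-4 flank, chr20:21392132-21392331: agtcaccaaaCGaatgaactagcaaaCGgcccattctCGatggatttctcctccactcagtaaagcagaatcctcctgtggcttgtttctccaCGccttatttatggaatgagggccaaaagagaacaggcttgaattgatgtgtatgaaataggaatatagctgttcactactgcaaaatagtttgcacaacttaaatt
These 6 windows held 1 to 8 CG dinucleotides, beside a median of 2 (quartiles 1 and 4) over the middle 200 bases of all 8714 members. The window upstream of EGLN1 had 1 CG and a GC content of 32.5%, and the window in the TMEM174 region had 8 and 50%. The sources used here do not say how reads that fit several places in the genome were counted.

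Narrow distal loci were short and thinly covered. Their median width was 2003.5 bp (quartiles 1455 and 3157), against 4294 bp for promoter loci and 22324 bp for wide loci. A single interval made up 5459 of the 8714 members (62.6%), 1716 held 2 intervals, 573 held 3 and 966 (11.1%) held 4 or more. The mean count of the widest interval over the 4 libraries had a median of 17.25 reads or fragments, beside 56 for promoter loci and 1148 for wide loci. Per length, the median level was 0.844 normalised CPM (counts scaled to the library size) per kb, against 1.34 at promoter loci, 5.16 at wide loci and 1.08 at the distal loci with H3K4me1. The members covered 24.0 Mb, or 35.6% of all bases in H3K27me3 loci.

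Narrow distal loci were poorer in CG than the other classes. At least one 200-base window with a GC content of 50% or more and an observed over expected CG ratio of 0.6 or more, the criteria used for a CpG island, was found in 2946 members (33.8%), against 80.8% of promoter loci, 99.6% of wide loci and 63.2% of distal loci with H3K4me1. Since a wide locus has more windows to try, the middle 300 bases were compared as well, and they met the criteria in 5.91% of members, 36.3% of promoter loci, 24.8% of wide loci and 16.6% of distal loci with H3K4me1. The median CG ratio of the members was 0.22 and their median GC content 48.7%, against 0.42 and 53.3% at promoter loci. In the same 300 bases, 8-letter motifs searched on both strands were about as frequent in members as in all loci. GAGGAAGT, a core bound by the myeloid factor PU.1 (the product of SPI1), was present in 1.63% of members and 1.59% of all loci, GAGAGAGA in 4.36% and 4.24%, and CACACACA in 4.97% and 5.17%.

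Of the members, 2712 (31.1%) lay in introns and 933 (10.7%) touched an exon of a protein-coding gene, 1466 (16.8%) lay in a long noncoding RNA gene, 187 (2.15%) in another gene such as a pseudogene, and 3416 (39.2%) were intergenic. The median distance to the nearest protein-coding TSS was 24693 bp, and 1431 members (16.4%) lay over 100 kb away. The start of another annotated transcript was within 2 kb of 1224 members (14.0%) and inside 636 of them. A wide locus lay within 10 kb of 935 members (10.7%), and another locus of any kind within 5 kb of 5645 (64.8%), so that many members had close neighbours and were not isolated spots. The genes with the most members in their body or nearest to them were NTM with 47, MTX2 with 42 and C8orf90 with 37. Among chromosomes 1 to 22 density ran from 1.00 members per Mb on chromosome 4 to 6.95 on chromosome 20, with 5.45 on chromosome 8, and chromosome X had 0.320. The copy number of each chromosome in these cells was not measured.

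H3K27ac and H3K4me3 were rare at these loci, but the rule had itself left out loci near a coding TSS and loci on H3K4me1. A wider locus also has more bases to overlap, and no comparison at equal width was made, so the class shares are descriptions. An H3K27ac interval overlapped 826 members (9.48%), against 24.5% of promoter loci, 37.5% of wide loci and 32.4% of distal loci with H3K4me1. An H3K4me3 interval overlapped 172 members (1.97%), against 40.0%, 55.0% and 27.6%. Within the members, H3K4me3 was found at 153 of 2946 with an island window (5.19%) and at 19 of 5768 without one (0.329%). It was found at 71 of 1224 members with another transcript start within 2 kb (5.80%) and at 101 of the 7490 without (1.35%), whereas H3K27ac was at 9.48% of both. Both modifications were present at 46 members. These overlaps come from a population of cells and do not show that the marks shared a nucleosome or a cell.

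The first question was whether PR-957 moved H3K27me3 towards or away from the narrow distal loci. Of the count over the widest interval of every locus, these loci held 8.89% (95% Wilson interval 8.86 to 8.93) and 8.86% (8.83 to 8.89) under DMSO, and 10.1% (10.1 to 10.2) and 10.8% (10.8 to 10.8) under PR-957. The intervals cover counting error only. Both PR-957 libraries were above both DMSO libraries, with means of 8.88% ± 0.0253 (SD, n = 2) and 10.5% ± 0.473 (SD, n = 2). The share was 1.18 times as high, but the exact two-sided permutation test gave p = 0.333, the smallest value that 2 libraries against 2 allow. Promoter loci held 16.1% and 16.3% in DMSO and 17.3% and 17.8% in PR-957. Distal loci with H3K4me1 held 1.22% and 1.21% in DMSO and 1.24% and 1.32% in PR-957. A higher share in both PR-957 libraries was thus not particular to the members. Wide loci held 73.8% and 73.6% in DMSO and 71.3% and 70.1% in PR-957, so that their share was lower in both PR-957 libraries.

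The level of a typical member comes from the same counts as the share and is not a second observation. The median raw count of a member was 14 and 16 under DMSO and 18 and 23 under PR-957, and the median normalised level 1.48 and 1.41 against 1.67 and 1.78 CPM. Without adjustment for depth, no count at all was found at 122 and 92 members in DMSO and at 60 and 17 in PR-957. Over the 7397 members that passed the count filter (84.9%), log2 levels correlated between the DMSO libraries with r = 0.88 and between the PR-957 libraries with r = 0.82, and pairs across treatments lay between 0.85 and 0.88, as a description across loci that share depth and library. The 1317 members that did not pass had a median mean count of 7.75, and 1310 of them were single intervals.

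Few single loci passed the test. By edgeR's quasi-likelihood test with Benjamini-Hochberg adjustment over all 31806 tested intervals, 72 of the 7397 tested members (0.973%) differed between PR-957 and DMSO at a false discovery rate of 0.05, beside 5.92% of all tested intervals. Of these, 23 were higher in PR-957, beside 0.824% of all intervals higher, and 49 were lower, beside 5.09% lower. The shares over intervals count a locus once for each of its intervals. Counted as the members were, by the widest interval, 489 of 12355 tested loci of all classes (3.96%) were called, 0.761% higher and 3.20% lower. By class, 120 of 3769 promoter loci (3.18%), 283 of 787 wide loci (36.0%) and 14 of 402 distal loci with H3K4me1 (3.48%) were called. The median count was 17.25 for members, 56 for promoter loci and 1148 for wide loci, and low counts are harder to call. The part of the count in these shares was not tested. When only intervals with a mean count of at least 50 were fitted, 57 of 1276 members (4.47%) were called. The share of all intervals called in that fit is not given here, so 4.47% cannot be set beside the shares above. An unadjusted p under 0.05 was found at 542 of the 7397 members, beside 1461 of 12355 tested loci of all classes. The call count rested on each library, falling to 44 or 43 when DMSO replicate 1 or 2 was left out, to 26 when PR-957 replicate 1 was, and to 56 when PR-957 replicate 2 was.

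The median member was higher in PR-957, while in this fit most called members were lower. When only intervals with a mean count of at least 50 were fitted, 30 of 1276 members were called higher and 27 lower, again with no share over all intervals given here. The median log2 fold change (PR-957 over DMSO, after scaling by the trimmed mean of M values, TMM) was 0.18 (quartiles -0.11 and 0.51) over the 7397 tested members. By the widest interval it was 0.04 at promoter loci, -0.08 at wide loci, 0.016 at distal loci with H3K4me1 and 0.098 over all tested loci. Over all tested intervals, which overlap, it was 0.02. This went with the level of the loci. From the lowest to the highest quartile of members by CPM per kb, the medians were 0.47, 0.29, 0.12 and -0.01. In the highest quartile 44 called members were lower and 6 higher. A locus can pass the count filter through 1 treatment alone, and higher members near MASP1, HEY1, GRM4 and KCNH6, given below, did so through PR-957. So did those nearest CLDN14 (0 and 4 counts in DMSO), PRUNE2 (6 and 6) and MYC (8 and 9). The higher member nearest S100A7A had 6 and 12 in DMSO. On the lower side, the member nearest MYOD1 had 30 and 42 counts in DMSO and 4 and 17 in PR-957. These medians over tested members, the number of higher calls and their comparison with the lower ones are therefore descriptions. The 49 lower members had a median level of 1.95 CPM per kb and held 4 or more intervals in 38 cases, and the 23 higher members had 0.936 CPM per kb and held 4 or more in 4.

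**Figure D1:**
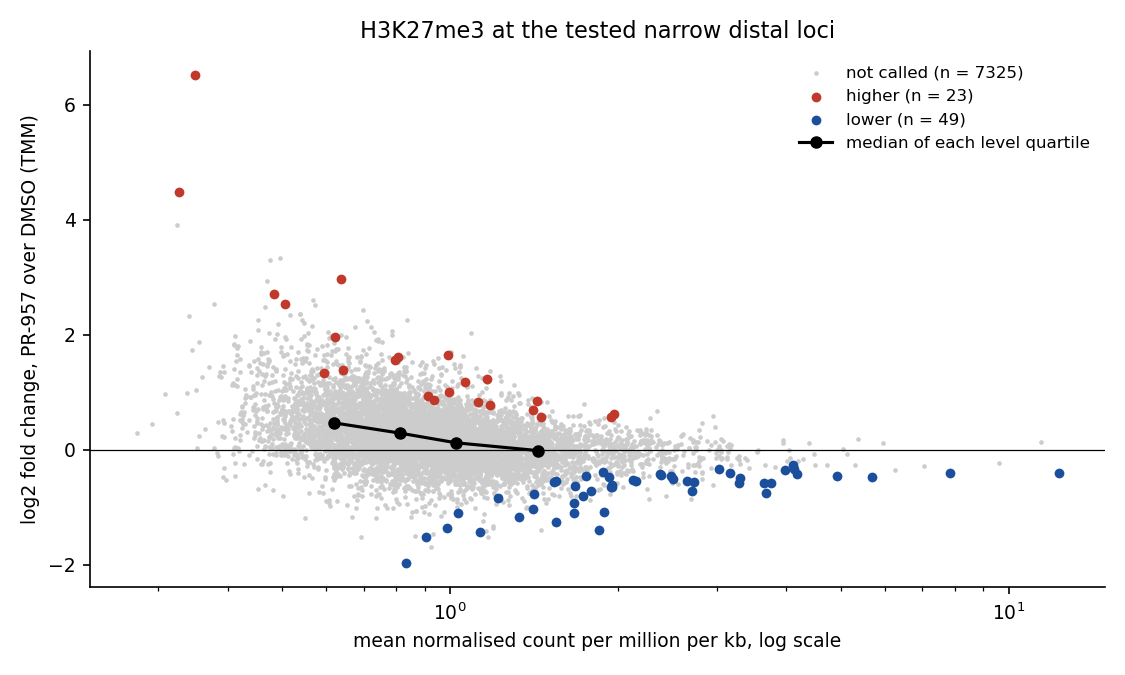
Log2 fold change of H3K27me3, PR-957 over DMSO after TMM scaling (vertical axis), against the mean normalised level over the 4 libraries (horizontal axis, CPM per kb, log scale) for 7397 tested members. Called members are red (23 higher) or blue (49 lower), and black points join the medians of the level quartiles, from 0.47 to -0.01; the highest red points have 0 or 1 count in DMSO and no reliable fold.

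The size of the typical change, and its side of 0, varied with the scaling. When libraries were scaled by their size alone, the median over all tested intervals moved from 0.02 to 0.18 and that of the members to 0.34. Library size called 98 members higher and 14 lower, beside 4.78% and 2.19% of all intervals and 6.98% in either direction. Cyclic loess offsets, which remove any trend with level by construction, gave a member median of -0.00 with 23 higher and 37 lower, beside 2.51%, 3.03% and 5.54%. Offsets on counts per kb gave -0.01. No spike-in scaling was applied here, and all of these changes are relative to the rest of the library.

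Members with a single interval had a median log2 fold change of 0.26 and those with 2 intervals 0.29, against 0.02 with 3 and -0.06 with 4 or more. In the 4149 single-interval members tested the median level was 1.16 and 1.23 CPM in DMSO and 1.39 and 1.55 in PR-957. In the 966 members with 4 or more intervals it was 9.52 and 9.34 against 9.09 and 9.40. Among the latter, 4 members were higher and 38 lower, or 4.35% called. With cyclic loess offsets the single-interval median was -0.11, the 2-interval median 0.19 and that of 4 or more -0.01. The sources used here do not say whether the intervals were called on each library or on pooled libraries, and the part of that choice in these values was not tested.

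**Figure D2:**
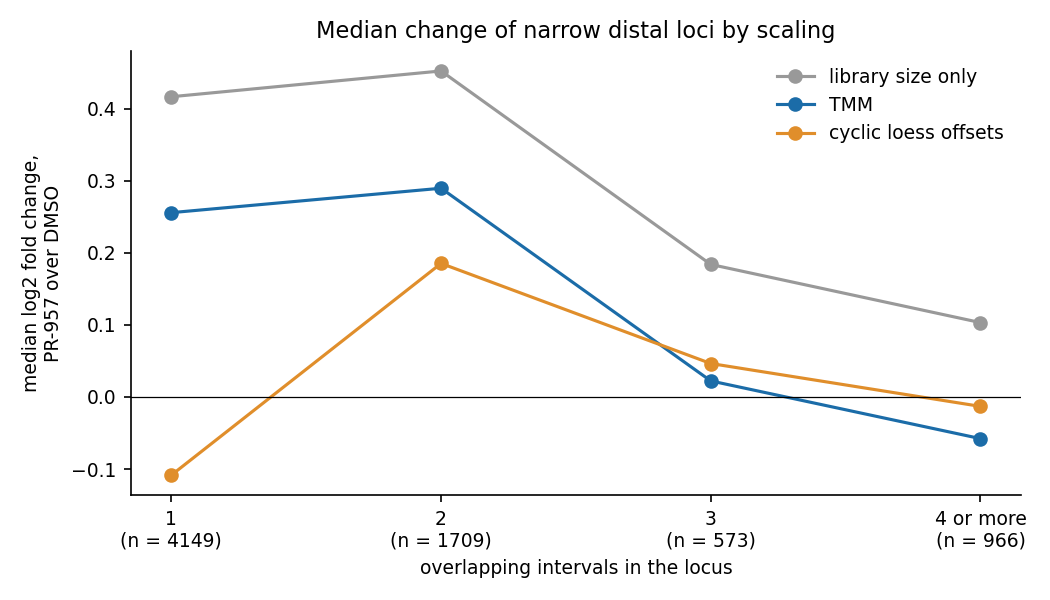
Median log2 fold change of H3K27me3, PR-957 over DMSO (vertical axis), for tested members with 1, 2, 3 or 4 or more overlapping intervals (horizontal axis, n below), with library size alone, TMM scaling and cyclic loess offsets. With TMM the median was 0.26 for 1 interval and -0.058 for 4 or more, and the curves differ most at 1 interval.

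The median log2 fold change was 0.20 for intronic, 0.19 for exonic and 0.20 for intergenic members and 0.10 for those in long noncoding RNA genes, with TMM scaling. Members in long noncoding RNA genes were 1278 of the 7397 tested and held 20 of the 49 lower calls. In all, 23 of the 1278 (1.80%) were called, beside 0.973% of all tested members and 5.92% of all tested intervals. Some of these calls are neighbours in the same gene, such as LINC01798, and are not independent. Members in other genes had a median of 0.07, with 5 of 172 (2.91%) called. With an island window the median was 0.14 and 41 of 2721 members (1.51%) were called, and without one it was 0.21 and 31 of 4676 (0.663%), at median levels of 1.04 and 0.858 CPM per kb. Members within 10 kb of a wide locus had a median of 0.10, with 2 higher and 7 lower of 883 (1.02% called), and those farther away 0.19, with 0.968% called. By chromosome, 11 members were lower and none higher on chromosome 2 (525 tested) and likewise on chromosome 5 (490 tested), beside 0.662% lower over all tested members.

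The 10 members with the smallest p-values were all lower in PR-957. The strongest lay in an intron of ADAMTS18, a secreted metalloprotease (chr16:77396258-77406188, 4 intervals). Its normalised H3K27me3 level was 45.4 and 46.4 CPM in DMSO and 25.2 and 29.1 in PR-957, with both PR-957 libraries far below the DMSO pair. The log2 fold change was -0.75 (SE 0.11, adjusted p = 4.6e-09), and a wide locus lay 1950 bp away. It passed in all 15 alternatives that gave a value, with adjusted p from 4.3e-11 to 0.000177.

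The member with the highest count lay in a long noncoding RNA gene 53966 bp from TMEM174 (chr5:73227258-73241945). Its level was 128 and 134 CPM in DMSO and 97.7 and 100.4 in PR-957, which gave a log2 fold change of -0.41 (SE 0.07, adjusted p = 3.8e-07). Called members with gaps of up to 100 kb were joined after the calls, which gave a span here from chr5:73211588 to chr5:73326400. In it, next to TMEM174 and FOXD1, a forkhead transcription factor, 4 of 13 members were called lower, beside 0.662% of all tested members. The log2 fold change was negative in 10 of the 13 and ranged from -0.67 to 1.10. Since the calls set the ends of the span, these counts are a description and no support. Neighbouring loci are not independent of each other.

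Upstream of EGLN1, the oxygen-sensing prolyl hydroxylase, 2 adjacent members were lower. The larger (chr1:231458753-231469290, in an exon of an unnamed protein-coding gene) had 16.1 and 14.98 CPM in DMSO and 6.30 and 8.82 in PR-957. The log2 fold change of this locus was -1.02 (SE 0.19, adjusted p = 9.3e-06), and it passed in all 14 alternatives that gave a value. The smaller one (chr1:231454738-231458161), chosen after its values were seen, had raw counts of 38, 40, 12 and 23 in DMSO replicates 1 and 2 and PR-957 replicates 1 and 2.

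A member in a long noncoding RNA gene 26136 bp from CHRNA1, a muscle acetylcholine receptor subunit (chr2:174724599-174738276), had 36.4 and 36.3 CPM in DMSO and 22.99 and 26.1 in PR-957. It fell by 0.56 on the log2 scale (SE 0.11, adjusted p = 0.000104). In an intron of CDH13, an atypical cadherin (chr16:83134436-83141244), the level was 15.6 and 14.5 CPM against 7.51 and 9.59, with a log2 fold change of -0.80. Without PR-957 replicate 1 this locus did not pass, with an adjusted p of 0.0686 in edgeR.

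MEIS1, a homeobox cofactor of HOXA9 and a KMT2A target, was the nearest coding gene of 5 members. All 5 had a negative log2 fold change, beside 66.1% of all tested members above 0. Several of the 5 are close neighbours and not independent of each other, so the shared sign is a description. In MEIS1-AS3, 3825 bp from a TSS of MEIS1 (chr2:66423188-66429627), the level was 43.4 and 41.8 CPM in DMSO and 28.9 and 32.5 in PR-957, with a log2 fold change of -0.47 (SE 0.11, adjusted p = 0.000612). In LINC01798, 71610 bp away (chr2:66580537-66584311), it was 51.2 and 53.3 CPM against 40.6 and 38.5, a log2 fold change of -0.40 (adjusted p = 0.00110). This was also the densest of all members, at 12.3 CPM per kb, and its sequence is given above. The adjoining locus (chr2:66585364-66590798) had 15.97 and 18.0 CPM against 13.2 and 10.4, a log2 fold change of -0.54 (adjusted p = 0.0274). The groups did not overlap at these 3 loci, while at the other two, upstream of the gene, the PR-957 and DMSO libraries overlapped (log2 fold changes -0.22 and -0.21). The calls were not all stable, as the adjusted p in edgeR rose to 0.0501 at the first on leaving out PR-957 replicate 1 and to 0.0581 at the second on leaving out DMSO replicate 2. At the third it was 0.303 or 0.366 when replicate 2 of DMSO or of PR-957 was left out. Scaling by library size alone ended all 3 calls (adjusted p = 0.0657, 0.115 and 0.181 in edgeR) and counts-per-kb offsets those of the second and the third (0.161 and 0.0848). The third was also lost with cyclic loess (0.0656) and with GC offsets (0.156).

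The other lower loci of this rank were a member in the long noncoding RNA gene NHEG1, 51879 bp from IL20RA (chr6:136985400-136992369), one in LINC01121, 157985 bp from SIX2, a homeobox gene of kidney development (chr2:45167437-45174677), and an intergenic one 315006 bp from AQP7B (chr2:94268049-94272095). Their log2 fold changes were -0.58, -0.58 and -1.51 in that order, and the last rested on small levels of 4.87 and 5.99 CPM in DMSO and 1.95 and 1.86 in PR-957. Without DMSO replicate 1 the NHEG1 and LINC01121 loci did not pass (adjusted p = 0.201 and 0.111 in edgeR). The SIX2 locus also overlapped an H3K4me3 interval.

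Among the higher members, the 5 with the smallest p-values are given next. In an intron of DLGAP4, a postsynaptic scaffold gene (chr20:36332935-36338538), the level was 1.69 and 1.85 CPM in DMSO and 4.54 and 4.80 in PR-957, with a log2 fold change of 1.39 (SE 0.37, adjusted p = 0.00548). In FAIM2, an inhibitor of FAS-mediated death of neurons (chr12:49883933-49892205), it was 6.98 and 6.34 CPM against 12.4 and 10.4, with a log2 fold change of 0.77 (adjusted p = 0.00766). In CCDC92B, 8541 bp from CLUH (chr17:2721204-2729972), it was 7.93 and 7.84 CPM against 13.5 and 12.1, with a log2 fold change of 0.69 (adjusted p = 0.0108). None of the 3 was called without PR-957 replicate 1, where the adjusted p in edgeR was 0.0643, 0.249 and 0.212, and each lost its call on leaving out at least 1 further library, down to 0.103 for DLGAP4 without PR-957 replicate 2, 0.130 for FAIM2 without DMSO replicate 2, and 0.0762 and 0.114 for CCDC92B without DMSO replicates 1 and 2.

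At the other two, the DMSO libraries were at or near 0, and the loci passed the count filter only through the PR-957 libraries in which they are high, so their calls and rank support nothing further. An intergenic interval 20009 bp from MASP1, a complement protease (chr3:187311989-187313449), had 0 and 0 counts in DMSO and 12 and 12 in PR-957, which is at least 7.02-fold higher against a floor of 3 counts over the DMSO libraries. One 65146 bp from HEY1, a Notch target (chr8:79699228-79701329), had 1 and 0 against 16 and 15, a ratio of 27.2 with a 95% exact counting interval of 4.53 to 1108. Without either DMSO library neither was called (adjusted p from 0.217 to 0.438), and the second was not called without PR-957 replicate 1 either (adjusted p = 0.0791). Both calls were also lost with cyclic loess (adjusted p = 0.151 and 0.152 in edgeR) and counts-per-kb offsets (0.0719 and 0.101).

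**Figure D3:**
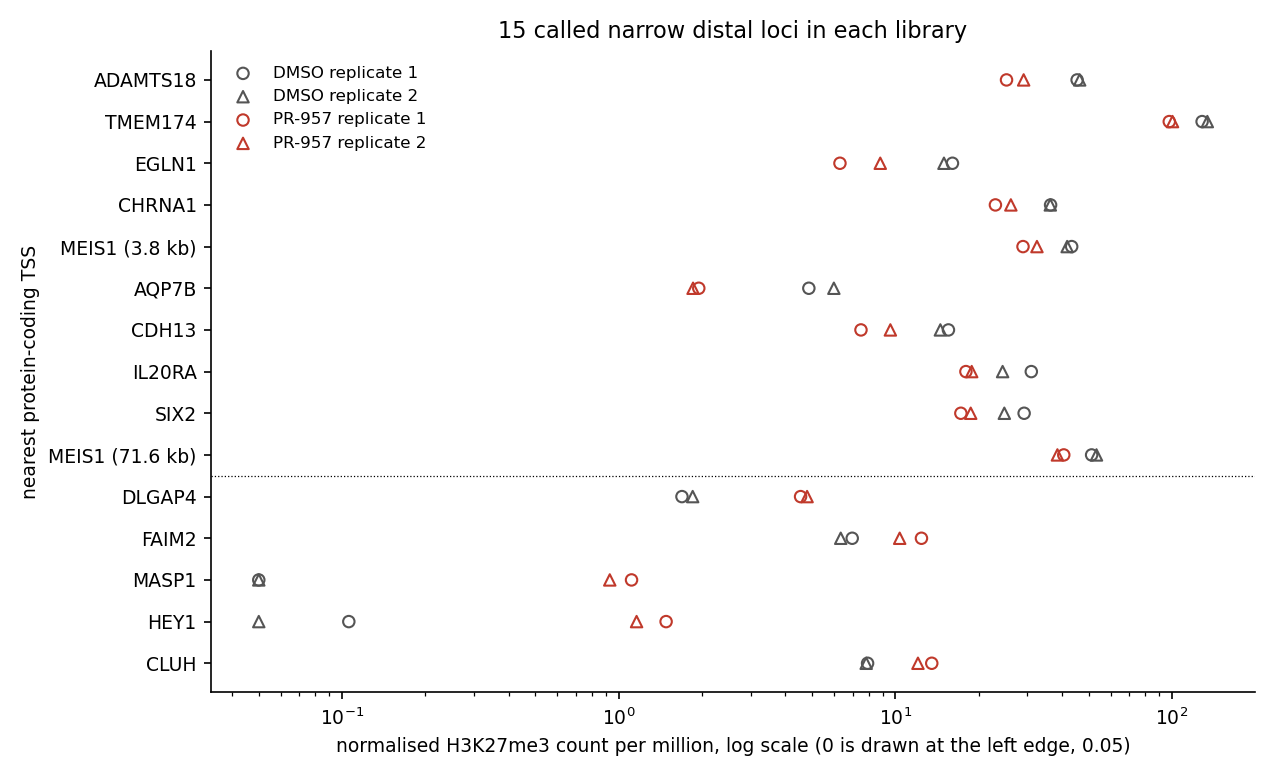
Normalised H3K27me3 level (horizontal axis, CPM, log scale, with 0 drawn at the left edge) of 15 called members in each library, named by the nearest protein-coding TSS. Above the dotted line are the 10 with the smallest p-values, where both PR-957 libraries (red) lie below both DMSO libraries (grey), and below it the 5 higher members with the smallest p-values.

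Of the 6 members with the highest CPM per kb, the LINC01798 and TMEM174 loci were called lower, as given above. The others were at the FOXO1B pseudogene (chr5:181098725-181100885, 11.4 CPM per kb), 3429 bp from NKX2-4 (chr20:21390444-21394097, 9.60), in an intron of GATA4, a heart and endoderm transcription factor (chr8:11679013-11680331, 7.04), and in a gene without a symbol on chromosome 2 (chr2:222314435-222317041, 6.25). At FOXO1B the level was 24.1 and 22.7 CPM in DMSO and 24.1 and 26.9 in PR-957, so that the treatments overlapped, with a log2 fold change of 0.13 (adjusted p = 0.714). The NKX2-4 flank had 39.8 and 34.4 CPM against 28.9 and 34.2 (adjusted p = 0.295), GATA4 9.73 and 9.69 against 9.09 and 7.04 (adjusted p = 0.588), and the last 19.0 and 17.5 against 13.7 and 14.9 (adjusted p = 0.212). None of these 4 passed in the fit or in any alternative.

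Members were assigned to gene lists by the coding gene around them or, failing that, the nearest coding TSS, and the counts are set beside 0.311% higher, 0.662% lower and a median of 0.18 over all tested members. Of the KMT2A target genes, 5 of 21 had members, 22 in all. Of the 21 tested, 3 were lower, each near MEIS1, none was higher, and the median log2 fold change was -0.13. The 5 members of MEF2C, a myeloid and muscle transcription factor, ranged from -1.15 to 0.23, the 4 of PBX3, another homeobox cofactor, from -0.00 to 1.37, the 6 tested of GNAS, a G protein subunit gene, from -0.46 to 0.73, and the single one of HOXA3 stood at 0.12, with none called. Blood transcription factors had 53 members at 15 of 27 genes, of which 51 were tested and none passed (median 0.15). PAX5, the B cell factor, had 15 and IRF8, needed for monocytes, had 13. The 3 with the highest counts that had IRF8 as nearest gene, 201243, 274992 and 283715 bp from it, had 19.3 and 18.0 CPM in DMSO and 18.8 and 19.8 in PR-957, 17.2 and 16.6 against 16.04 and 15.01, and 15.1 and 12.6 against 18.5 and 14.4. Their adjusted p-values were 0.913, 0.784 and 0.508.

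Developmental transcription factors had the most members of any list, 434 (4.98%) at 97 of 174 genes, led by FOXA2 with 32 and FOXQ1 with 29. Of 389 tested, 5 were lower, near FOXD1, NKX2-2, NKX2-8, SIX2 and TBX5, and none was higher (median 0.12). The loci near NKX2-2 (chr20:21551561-21558499, log2 fold change -0.53, adjusted p = 0.0299) and NKX2-8 (chr14:36587460-36598149, -0.47, adjusted p = 0.0302) both lay in long noncoding RNA genes. Of the 18 members at genes of the HOXB, HOXC and HOXD clusters, 17 were tested and 1 was lower, in LINC02086 near HOXB7. Potassium and calcium channel genes had 252 members at 48 of 122 genes, with 1 higher of 216 tested, at KCNH6 (median 0.34), where counts were 2 and 4 in DMSO and 22 and 18 in PR-957, and large neuronal adhesion and synapse genes had 114 at 21 of 92, with 1 higher near GRM4 and 1 lower in CDH13 of 96 tested (median 0.31). The locus near GRM4 had counts of 2 and 3 against 24 and 14, and it and that at KCNH6 passed the count filter only through PR-957. Zinc finger genes had 104 members at 32 of 547 genes with 1 lower of 89 tested, near ZNF330. WNT, BMP and FGF ligand genes had 88 members, olfactory receptors 19 and Polycomb genes 6, with no call among 76, 17 and 4 tested. Clustered protocadherins had none.

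The last question was whether the active marks at these loci responded to PR-957. The 826 members with H3K27ac were represented by 761 intervals, of which 759 were tested and 1 was called, beside 0.238% of all H3K27ac intervals. It lay at DLGAP3 (chr1:34865762-34867200), where H3K27ac was 3.41 and 3.23 CPM in DMSO and 7.85 and 6.90 in PR-957, which gave a log2 fold change of 1.14 (SE 0.27, adjusted p = 0.0141), while H3K27me3 counts there were 6, 5, 2 and 12 and too low to be tested. Leaving out any 1 library ended that call, and 31 of the 759 intervals (4.08%) had an unadjusted p under 0.05, beside 8.01% of all H3K27ac intervals. For H3K4me3, edgeR called none of the 165 intervals tested, beside 0.226% of all, 6 had an unadjusted p under 0.05 and DESeq2 called none. The median log2 fold change was 0.10 for H3K27ac and 0.08 for H3K4me3, beside 0.00 over all intervals of each. These intervals were weak, with median levels of 3.09 CPM for H3K27ac and 2.45 CPM for H3K4me3 against 7.47 and 12.9 over all intervals.

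The 4 members with both H3K27ac and H3K4me3 and the highest H3K27me3 counts did not pass for any of the 3 modifications. Near GNG13, a G protein gamma subunit (chr16:808420-816706), H3K27me3 was 24.3 and 26.2 CPM in DMSO and 28.7 and 25.1 in PR-957, H3K27ac 10.1 and 9.17 against 9.56 and 10.8, and H3K4me3 8.32 and 6.39 against 6.70 and 8.39. In FGF18, a growth factor gene (chr5:171444650-171455647), H3K27me3 was 22.2 and 22.5 CPM against 23.5 and 22.97, H3K27ac 5.45 and 6.45 against 3.72 and 4.504, and H3K4me3 2.86 and 2.81 against 2.82 and 3.63. The libraries of the treatments overlapped near GNG13 in all 3 modifications, while in FGF18 both PR-957 libraries lay below DMSO for H3K27ac and above it for H3K27me3, and neither difference passed the test in edgeR (adjusted p = 0.648 and 0.901). At the remaining 2, near SPIDR (chr8:47186046-47192706) and GOLGA8B (chr15:34511676-34520130), H3K27me3 had log2 fold changes of -0.10 and -0.21 with adjusted p of 0.839 and 0.580. Near GOLGA8B the order was opposite to that in FGF18. There H3K27me3 was 17.5 and 17.1 CPM in DMSO against 16.1 and 13.8 in PR-957, and H3K27ac 2.95 and 2.32 against 3.72 and 3.24.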

How the data were processed

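Cut&Tag libraries of MOLM-13 cells (H3K27me3, H3K27ac, H3K4me1 and H3K4me3, 2 per treatment, 16 in all) were analysed, and 2 IgG samples were left out. The authors deposited whole-number counts of reads or fragments per listed interval, without normalization, on 1 list of overlapping intervals per modification. The authors aligned reads to hg38 with Bowtie2 (2.2.5 in the submitters' processing notes) and, per the paper, called peaks with MACS2 or SEACR. Those notes also list SEACR 1.3 and Picard 2.27.1. The counter, the handling of duplicates and whether starts count from 0 have no statement in the sources used here, so coordinates stand as listed, and those of printed sequences count from 1.

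Intervals were kept by filterByExpr of edgeR 4.0.16 (minimum count 10), scaled by TMM and tested by quasi-likelihood in R 4.3.3, with Benjamini-Hochberg adjustment at 0.05 over all tested intervals and no replicate block. A standard error is the absolute log2 fold change over the square root of the F statistic. CPM were computed with TMM-scaled library sizes. Each member was represented by its widest H3K27me3 interval, and its H3K27ac or H3K4me3 by the widest overlapping one. The fit was tested on simulated counts. Alternatives were median-of-ratios factors, library size alone, cyclic loess, GC and counts-per-kb offsets (span 0.3), DESeq2 1.42.0, other filters, other definitions of the members, the block and leaving out each library. Loci with 4 or more intervals were added after seeing the data.

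The members, lists and rules were chosen with earlier results of these data known. Named were the 10 called members with the smallest p-values and no overlap between treatments, the first 5 of the rarer direction, the 6 with the highest CPM per kb, the 6 highest counts at KMT2A target or blood factor genes, and the 4 highest counts with both H3K27ac and H3K4me3. Sequence windows on chromosome 8 or in untranslated exons were left out, and the window of 1 further locus and 1 marker gene are not reported here.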

Additional observations from a re-analysis of the deposited data

How the results depend on the processing

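The number of narrow distal loci stayed between 7705 and 9153 under the other definitions, and the number of calls, 72, stayed within 1.5 times under median-of-ratios factors, cyclic loess, no count filter, 1 interval per locus, a mean count of at least 50, GC and counts-per-kb offsets, chromosomes 1 to 22, the highest-count interval, 2 or more intervals, a TSS distance over 5 kb, protein-coding transcripts only and a 2 kb margin around H3K4me1. The called loci changed more than their number, as 43 of 60 calls with cyclic loess, 35 of 57 with a mean count of at least 50, 35 of 55 with counts-per-kb offsets and 43 of 49 with GC offsets were among the 72. Library size alone gave 112 calls (98 higher, 14 lower; 37 among the 72), a width under 5 kb 28 (13 and 15), and loci with 4 or more intervals, added after seeing the data, 42 (4 and 38). DESeq2 gave 11 (0 and 11), but its independent filtering left 183 of the members with an adjusted p; 192 had an unadjusted p under 0.05. The replicate block gave 22 (4 and 18), all among the 72, and of the named called loci those near MASP1 (adjusted p = 0.0525 in edgeR) and at chr2:66585364 (0.107) did not pass with it. Same-numbered libraries deviated from their group means with r = -0.0089 over all intervals, so the numbers are no evidence of a pairing, and the block did not change the H3K27ac and H3K4me3 counts. Higher calls were 5 with 1 interval per locus and 12 with counts-per-kb offsets. Lower calls were 27 with a mean count of at least 50, beside 30 higher, and 27 with GC offsets, beside 22 higher. The causes were not tested. A width under 5 kb left 6388 members tested with 0.438% called, and 4 or more intervals left 966 with 4.35% called.

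Leaving out each library gave 26 to 56 calls, 8 to 18 higher and 18 to 38 lower. The median log2 fold change was 0.15 to 0.26 on leaving out a library, 0.34 with library size alone, -0.0013 with cyclic loess, -0.0083 with counts-per-kb offsets, 0.25 with no filter, 0.069 with a mean count of at least 50, 0.12 with 1 interval per locus, 0.22 with GC offsets, 0.11 with 2 or more intervals, 0.22 for a width under 5 kb and -0.058 for 4 or more intervals. The 2 sets of offsets remove a trend with level by construction. The difference in share was 1.60 percentage points and 1.27 to 1.94 on leaving out a library, and 0.464 over the total of all overlapping intervals, a larger denominator. The single H3K27ac call became 0 with DESeq2, where 6 of 759 intervals had an adjusted p and 13 an unadjusted p under 0.05, and 0 to 0 on leaving out a library. No named locus called in the fit changed direction in any alternative. The median count per member was 17.25.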
